A study of Rattus norvegicus with 6 samples.

Results

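Intergenic CHG regions were examined in hippocampal brain microvascular endothelial cells (BMECs), the cells that line the small vessels of the blood–brain barrier. CHG is a cytosine followed by A, C or T and then by G. A member was a listed CHG region that the deposited annotation assigned to none of 8 features: promoters, exons, introns, untranslated regions at the 5′ and the 3′ end, starts and ends of transcription, and CpG islands. Of 9020 CHG regions listed as differing between the groups, 9017 were annotated and 4852 (53.8%) met this rule, out of 160692 regions of all sequence contexts. The members were divided into 3290 regions with a repeat element at the same position (67.8%, Wilson 95% interval 66.5–69.1%) and 1562 regions without a repeat. The other 4165 annotated CHG regions served for comparison, and 38.0% of them held a repeat. The share of the genome and of the covered cytosines that lies in repeats was not analysed here, so these percentages cannot be set against it.

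The CUMS group comprised 3 samples from rats that had undergone 8 weeks of chronic unpredictable mild stress, and the Ctrl group comprised 3 samples from unstressed rats. All were male Sprague-Dawley rats, and in both groups the BMECs were sorted from digested hippocampus as cells positive for CD31, an endothelial surface protein, and negative for CD45, a leukocyte protein. Nothing in the sources used here says how many animals stood behind a sample. The tables hold methylation and no expression, so the purity of the sort could not be checked against endothelial markers. For each region a single level per group was given, in which the 3 samples had been combined. Replicate errors could hence not be given, the tables do not give the reads behind a level, and the spread between samples was not available to judge any difference. Intervals on shares are Wilson 95% intervals and cover counting error over listed regions only. Regions are not replicates of a condition, and neighbouring copies of a repeat are not independent.

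In mammals most DNA methylation is found at CG sites, where the DNMT1 enzyme copies it at each replication. Methylation at CHG and CHH sites (H is A, C or T) is laid down mainly by DNMT3 enzymes, is not copied in this way, and is usually scarce outside of neurons and pluripotent cells. Long interspersed elements of the L1 class are retrotransposons that encode their own reverse transcriptase, and short interspersed elements (SINEs) such as B1, B2, B4 and ID depend on it. Elements with long terminal repeats (LTRs), among them the ERVK, ERV1, ERVL and ERVL-MaLR classes, derive from retroviruses. DNA methylation is one of the means by which cells keep such elements silent. Reads from near-identical copies cannot be assigned to a position with certainty, and this applies to every value within a repeat.

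The direction of the members was determined first, where hypermethylated means higher in CUMS than in Ctrl and hypomethylated the reverse. Hypermethylation was found in 3302 intergenic CHG regions and hypomethylation in 1550, a hypermethylated share of 68.1% (66.7–69.4%). Across all CHG regions listed, the share was 68.6%, so the intergenic regions lay at the background of their context. Among regions with a repeat, 2237 were hypermethylated and 1053 hypomethylated (68.0%, 66.4–69.6%). Among regions without a repeat, the numbers were 1065 and 497 (68.2%, 65.8–70.4%). The share with a repeat minus the share without came to -0.19 percentage points, and the intervals of both shares overlapped almost completely. The other CHG regions showed 70.0% with a repeat and 68.7% without.

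The levels behind these calls were a few percent in the higher group and close to 0 in the lower. In the group with the higher level, the median was 4.13% over all members, 4.17% with a repeat and 4.08% without. The lower group was at or below 0.1% in 3255 members (67.1%), above 1% in 52 (1.07%) and above 5% in 3. The smallest lower level was 0.0081%, and the reads behind such values are not given. In 1 region the lower level was 0.014% over 9 cytosines. At the coverage per sample that the study's methods give, a single methylated read there would make a larger fraction, unless depth was far higher at that place. Such values are therefore likely to be estimates. Differences among them, also between the bands given below, should be read with caution. Hypermethylated regions had a median of 4.19% in CUMS and 0.038% in Ctrl. In hypomethylated regions the median was 0.033% in CUMS and 4.04% in Ctrl. Levels of the lower group were also divided into bands. In 2235 members the lower level was at or below 0.03%, in 1020 it lay above 0.03% and up to 0.1%, and in 1545 above 0.1% and up to 1%. The hypermethylated share in these 3 bands was 67.4% (65.4–69.3%), 61.0% (58.0–63.9%) and 73.8% (71.5–75.9%).

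**Figure D1:**
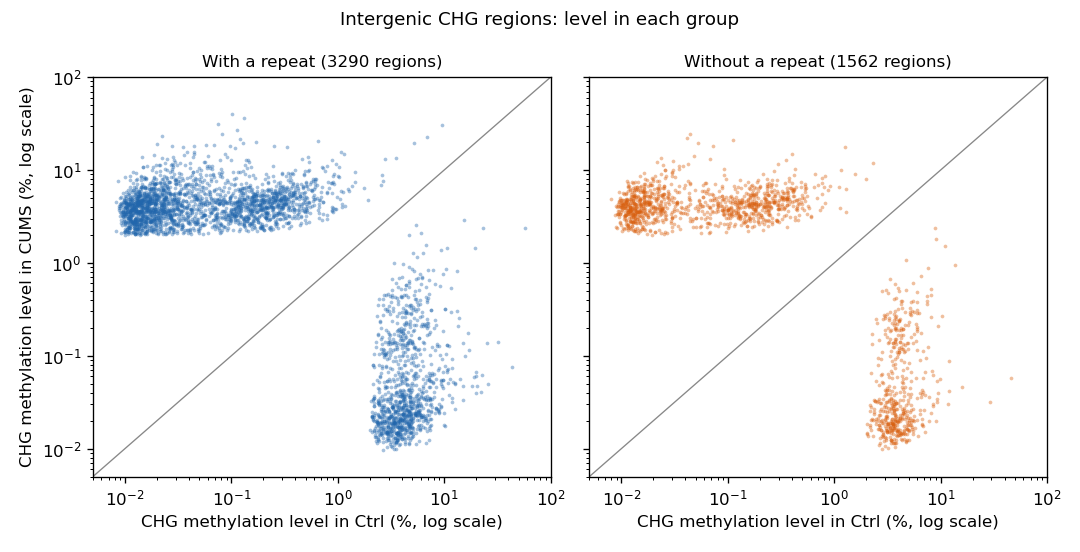
Methylation level of each intergenic CHG region in Ctrl (horizontal axis, percent, log scale) and CUMS (vertical axis, percent, log scale), for 3290 regions with a repeat (left) and 1562 without (right). Each point is a region and the line marks equal levels. Points gather in an arm above the line (hypermethylated) and an arm below it, with the lower group mostly under 1% in both panels, and no point lies on the line because only regions with a difference of at least 2.00 points were listed.

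The size of the difference was similar with and without a repeat in the middle of the range and diverged at its upper end. The median absolute difference was 4.03 percentage points with a repeat (quartiles 3.07 and 5.28) and 3.96 points without (3.26 and 5.00), against 4.10 points in the other CHG regions. A difference of at least 5 points was present in 1345 members (27.7%), compared with 28% of all CHG regions listed. It was present in 29.1% of regions with a repeat and 24.9% of regions without. A difference of at least 10 points was present in 167 members (3.44%), against 3.12% of all CHG regions listed. Of these 167, 137 held a repeat (4.16% of repeat regions, 3.53–4.90%) and 30 did not (1.92%, 1.35–2.73%). In the other CHG regions the same shares were 4.17% with a repeat and 1.82% without.

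Direction was compared again within these larger differences. At 5 points or more, 67.2% of the repeat regions (64.1–70.1%) and 73.8% of those without a repeat (69.2–77.9%) were hypermethylated. At 10 points or more, 86 repeat regions were hypermethylated and 51 hypomethylated (62.8%, 54.4–70.4%), and 22 regions without a repeat were hypermethylated and 8 hypomethylated (73.3%, 55.6–85.8%). The difference between the shares was thus -6.62 points at the first limit and -10.6 points at the second. The intervals of the separate shares overlapped at both. No interval of these differences was computed, so the overlap does not show that they lie within counting error. The other CHG regions showed the same order, with 67.6% with a repeat and 74.1% without at 5 points or more, and 59.1% and 68.1% at 10 points or more. At 20 points or more, 11 members were hypermethylated and 12 hypomethylated.

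**Figure D2:**
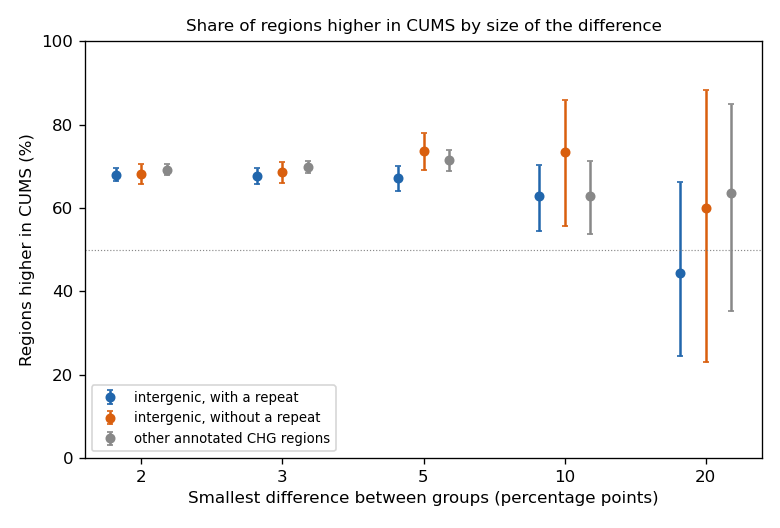
Share of regions higher in CUMS (vertical axis, percent) among regions with at least the difference on the horizontal axis (percentage points), for intergenic CHG regions with a repeat, without a repeat, and other annotated CHG regions. Bars are Wilson 95% intervals over regions. The 3 sets lie at 68.0%, 68.2% and 69.2% at 2 points and at 67.2%, 73.8% and 71.4% at 5 points, and have wide intervals at 20 points.

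The repeat elements that the regions fell into were then examined by class. L1 elements accounted for 1797 members, which is 54.6% of the repeat regions, whereas 33.6% of the repeat regions among the other CHG regions lay in L1. Of the L1 regions, 67.1% were hypermethylated (64.8–69.2%). The class annotated as Unknown comprised 420 regions (69.5%), of which 418 lay in its family RatSatRep2. ERVK elements held 406 regions (65.8% hypermethylated, 61.0–70.2%). ERVL-MaLR elements held 225 regions, of which 75.6% were hypermethylated (69.5–80.7%), the highest share among the 5 largest classes. Among SINEs, B4 held 161 regions (66.5%), the Alu class, which contains the rodent B1 elements, held 141 (70.2%), and B2 held 115 (68.7%). ERV1 held 99 regions (67.7%), ERVL held 67 (74.6%) and ID elements held 55 (74.5%). SINEs were less frequent here than among the repeat regions of the other CHG set. Alu-class elements took 4.29% of the intergenic repeat regions and 13.8% of the others, and B4 elements took 4.89% and 11.5%.

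Members fell into 374 repeat families. A family is a set of copies of the same ancestral element. A total of 2924 regions lay in copies of 1 family and 366 in copies of 2 or more, and the latter were counted in each. The 5 families with most members were L1_Rn, RatSatRep2, L1_Rat1, RNHAL1 and L1_Rn2, and all but RatSatRep2 belong to the L1 class. L1_Rn held 501 regions, of which 302 were hypermethylated and 199 hypomethylated (60.3%, 55.9–64.5%). L1_Rat1 held 372 regions, with 210 hypermethylated and 162 hypomethylated (56.5%, 51.4–61.4%). Both intervals lay below the 68.1% of all members. In contrast, 79 of 93 regions in L1_Rn2 were hypermethylated (84.9%, 76.3–90.8%), and this interval lay above 68.1%. In the other CHG regions L1_Rn2 did not stand out, with 18 of 27 hypermethylated (66.7%, 47.8–81.4%). Smaller families with an interval above 68.1% were L1_Rat4 with 56 of 68 (82.4%, 71.6–89.6%) and Lx9 with 23 of 26 (88.5%, 71.0–96.0%). They were picked for high shares out of 29 families with at least 20 members. In the other CHG regions, L1_Rat4 had 18 of 22 hypermethylated (81.8%, 61.5–92.7%), but Lx9 had 8 of 15 (53.3%, 30.1–75.2%). RNHAL1 was close to the members as a whole, with 93 of 140 regions hypermethylated (66.4%, 58.3–73.7%), as was RatSatRep2 with 291 of 418 (69.6%, 65.05–73.8%). Families differed in size of change as well. The median absolute difference was 4.13 points in L1_Rn, 3.99 points in L1_Rat1 and 4.15 points in L1_Rn2, but 3.31 points in RatSatRep2 and 3.30 points in RNHAL1.

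**Figure D3:**
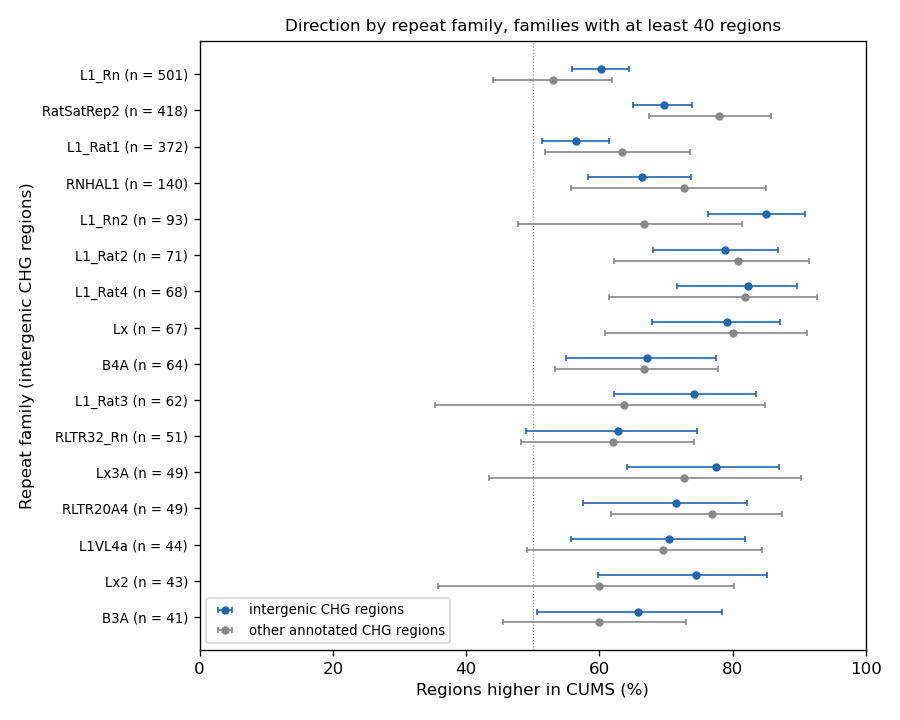
Share of regions higher in CUMS (horizontal axis, percent) in each of the 16 repeat families with at least 40 intergenic CHG regions, ordered by number of regions, with the same share in other annotated CHG regions. Bars are Wilson 95% intervals. Among the intergenic regions, L1_Rn (60.3%) and L1_Rat1 (56.5%) have the lowest shares of the 16 families, and L1_Rn2 (84.9%) has the highest.

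L1_Rn and L1_Rat1 were set against the remaining L1 families, a grouping that was chosen after the shares had been seen. It is therefore a description and carries no test. Together they held 872 regions, of which 512 were hypermethylated and 360 hypomethylated (58.7%, 55.4–61.9%). The 925 regions in other L1 families comprised 693 and 232 (74.9%, 72.0–77.6%). Among the other CHG regions, the same families gave 106 and 79 (57.3%, 50.1–64.2%), and other L1 gave 259 and 87 (74.9%, 70.03–79.1%). By chromosome, the share was below that of other L1 on 19 of 20 autosomes. The exception was chromosome 12, where they held 2 regions and other L1 held 7. The X chromosome contributed 24.8% of the regions in other L1 and 11.9% of those in L1_Rn or L1_Rat1. On X the shares were 66.3% (56.8–74.7%) and 74.7% (68.7–79.9%), and on the autosomes they were 57.8% (54.2–61.3%) and 75.3% (71.9–78.4%). Chromosomes share the same libraries, so they do not replicate the stress comparison.

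**Figure D4:**
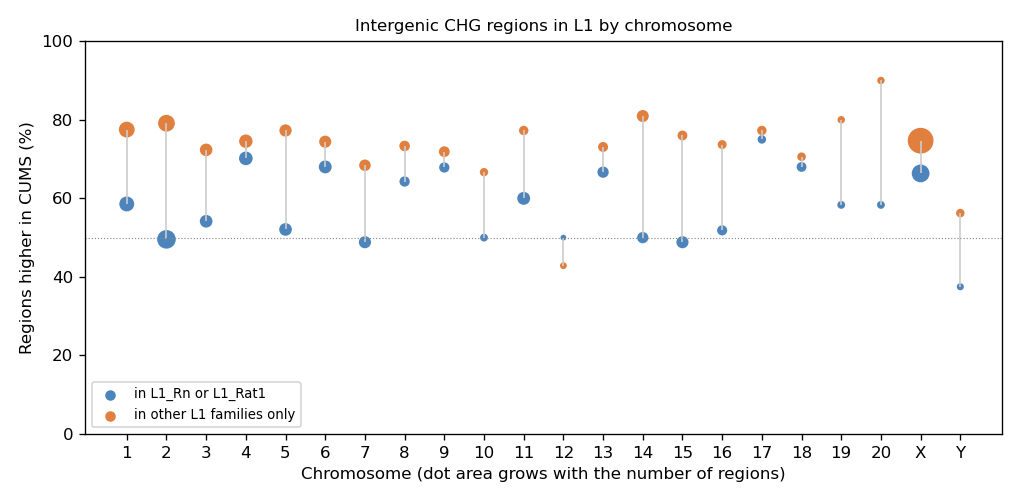
Share of regions higher in CUMS (vertical axis, percent) on each chromosome (horizontal axis) for intergenic CHG regions in L1_Rn or L1_Rat1 and for regions in other L1 families only. Dot area grows with the number of regions and the dotted line marks 50%. The dots of L1_Rn and L1_Rat1 lie below those of other L1 on 19 of 20 autosomes.

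The copies of these families were longer than those of other L1. The annotation gives the stretch of the family consensus that each copy covers, and its median was 5426 bp for regions in L1_Rn and 5363 bp in L1_Rat1, against 1341 bp in L1_Rn2 and 1139 bp in RNHAL1. Over all L1 regions, 60.4% (56.2–64.3%) were hypermethylated in copies longer than 5000 bp and 70.5% (66.8–73.9%) in copies of up to 1000 bp. The shares are given next by group of families and by length. Within L1_Rn and L1_Rat1 the share was 58.1% (49.7–66.05%) in copies of up to 1000 bp and 57.7% (53.4–61.9%) in copies above 5000 bp. Within other L1 it was 73.9% (69.8–77.5%) and 87.8% (75.8–94.3%), the latter over 49 regions. In this division by length, a region in copies of both groups was counted in both, unlike in the 925 regions above. In copies above 1000 and up to 3000 bp the shares were 64.3% and 73.6%, and above 3000 and up to 5000 bp they were 54.8% and 79.4%. At each of these lengths the share was lower in L1_Rn and L1_Rat1 than in other L1. These families were picked for low shares in the same regions, so each length carries that choice. Whether family or length accounts for the lower share was not tested. Some regions in L1 copies also overlapped RatSatRep2, and without these the shares were 58.3% for L1_Rn or L1_Rat1 and 74.7% for other L1.

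Large differences were also frequent in these families, though not in them alone. Of the 872 regions in L1_Rn or L1_Rat1, 79 (9.06%) differed by at least 10 points, compared with 22 of 925 regions in other L1 (2.38%), 28 of 1237 in repeats other than L1 and RatSatRep2 (2.26%) and 30 of 1562 without a repeat (1.92%). These 79 were divided into 40 hypermethylated and 39 hypomethylated regions, whereas the 22 in other L1 were divided into 18 and 4. L1_Rn and L1_Rat1 made up 18.0% of all members and 47.3% of the 167 members with at least 10 points. They held 17 of the 23 members with at least 20 points. Taken singly, 10.8% of the regions in L1_Rn and 6.72% of those in L1_Rat1 differed by at least 10 points. Some smaller families had similar shares over few regions, among them RLTR20A4 (5 of 49, 10.2%) and Lx9 (3 of 26, 11.5%). The lower hypermethylated share was not limited to large differences. Below 5 points it was 61.6% (57.5–65.5%) in L1_Rn or L1_Rat1 and 75.1% (71.9–78.1%) in other L1. Without the regions in these families, 71.3% of the repeat regions were hypermethylated, and the share with a repeat exceeded the share without by 3.16 points. This rise follows by construction, because the families were picked after their low shares had been seen.

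RatSatRep2 regions were divided by the exact stretch of the consensus that their copies covered. In 205 of 418 regions the annotated copy covered exactly positions 3600 to 4820 of the family consensus. In these, 133 were hypermethylated and 72 hypomethylated (64.9%, 58.1–71.1%). Other stretches, among them near-identical ones such as 3601 to 4820, were covered in 213 regions. Of these, 158 were hypermethylated and 55 hypomethylated (74.2%, 67.9–79.6%). The intervals overlapped. Of the RatSatRep2 regions, 162 also lay in an L1 copy and 256 did not, with 71.6% (64.2–78.0%) and 68.4% (62.4–73.7%) hypermethylated.

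Regions with the largest differences are described by their levels, 3 for each direction with and without a repeat. Coordinates are on mRatBN7.2. The largest difference of all was a hypomethylated region in an L1_Rat1 copy at chrX:126173222-126173387, with 2.38% in CUMS and 57.0% in Ctrl over 9 cytosines. It was followed among hypomethylated repeat regions by an L1_Rn copy at chr4:78919689-78919804, with 0.076% in CUMS and 43.7% in Ctrl over 10 cytosines. The third, at chr11:9176705-9176807, lay in both L1_Rn and RatSatRep2 and had 0.14% in CUMS and 32.0% in Ctrl over 11 cytosines. All 3 had few cytosines compared with the median of 15 over all members.

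The largest hypermethylated region lay in an L1_Rat1 copy at chr7:95501347-95501461, with 40.5% in CUMS and 0.10% in Ctrl over 9 cytosines. An L1_Rn copy at chrX:40897618-40897676 had 36.3% in CUMS and 0.13% in Ctrl over 7 cytosines. Another L1_Rn copy at chr8:5344420-5344548 had 31.6% in CUMS and 0.075% in Ctrl over 10 cytosines. All 6 of these repeat regions thus lay in L1_Rn or L1_Rat1, the families with the lowest shares of hypermethylated regions among the 16 families with at least 40 members.

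Without a repeat, the largest hypomethylated region lay on the Y chromosome at chrY:687658-687772, with 0.057% in CUMS and 46.2% in Ctrl over 10 cytosines. The next, at chr20:37497049-37497107, had 0.032% in CUMS and 29.0% in Ctrl over 12 cytosines, and the third, at chr14:8148735-8148791, had 0.046% in CUMS and 15.8% in Ctrl over 10 cytosines. The largest hypermethylated region without a repeat was at chrX:32378895-32379128, with 24.2% in CUMS and 0.044% in Ctrl over 31 cytosines. The region at chr15:89970048-89970108 had 22.3% in CUMS and 0.042% in Ctrl over 5 cytosines. The region at chr1:35839904-35839966 had 21.3% in CUMS and 0.11% in Ctrl over 7 cytosines. Of these 12 regions all were annotated as open sea, the DNA that lies away from CpG islands and their flanks, and 11 had a lower group under 1%.

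A level above 5% in both groups was seen in 3 members only, all hypermethylated and all in L1 copies. They are named here because of their levels, which were seen first. The L1_Rn region at chr3:104794295-104794415 had 30.5% in CUMS and 9.55% in Ctrl over 10 cytosines. The L1_Rn region at chr7:38055338-38055413 had 19.6% in CUMS and 5.15% in Ctrl over 6 cytosines. The Lx9 region at chr9:93655572-93655624 had 22.4% in CUMS and 6.91% in Ctrl over 4 cytosines. None of the 3 overlapped a CHH region.

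CHG regions were next joined to the CHH regions of the full list, which held 145823 of them, because both contexts are read from the same molecules. An overlap of at least 1 bp was present in 3145 members (64.8%, 63.5–66.2%), compared with 71.9% of the other CHG regions. It was less frequent with a repeat (61.7%, 60.1–63.4%) than without (71.3%, 69.03–73.5%). The other CHG regions showed the same order, with 69.7% and 73.3%. Direction was the same in 3141 of the 3145 (99.9%) and opposite in 4. Of the members with overlap, 71.1% lay entirely inside the CHH region, whose median length was 225 bp compared with 100 bp for these CHG regions. The overlapping regions had a median CHG level in the higher group of 4.52% and a median CHH level of 3.75%. The CHG level was the larger in 77.8% of them, with a median ratio of CHG to CHH level of 1.21 (quartiles 1.03 and 1.42). This ratio was 1.22 with a repeat and 1.19 without. Members were listed for a CHG difference and the CHH level was taken over a longer region. A ratio above 1 can therefore follow in part from how the regions were chosen.

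Overlap was more frequent among larger differences, with 64.8% of all members, 82.6% at 5 points or more and 86.2% at 10 points or more (80.2–90.6%). At 20 points or more it was 82.6% again, over 23 members (62.9–93.0%). The median ratio of CHG to CHH level was 1.32 at 5 points and 1.45 at 10 points, but selecting a large CHG difference raises this ratio by construction, since the lower group is near 0. Members without an overlap had a median level of 3.30% in the higher group and a median of 13 cytosines, against 4.52% and 17 cytosines in members with an overlap. Overlap was lowest in L1_Rn or L1_Rat1 (46.3%) and in RatSatRep2 (45.2%), and reached 65.4% in other L1 and 73.6% in other repeats. In L1_Rn and L1_Rat1, 55.2% were hypermethylated (50.3–60.0%) where a CHH region overlapped and 61.8% (57.3–66.04%) where none did. In other L1 the shares were 73.7% (70.07–77.1%) and 77.2% (72.3–81.4%). A cytosine that escapes deamination is read as methylated in any context, and the part of incomplete deamination in the shared CHG and CHH levels was not tested.

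**Figure D5:**
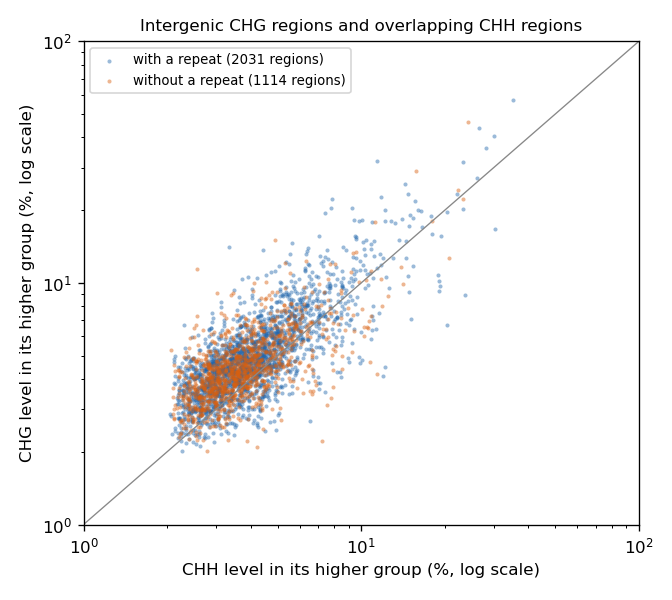
CHG level (vertical axis, percent, log scale) of the 3145 intergenic CHG regions that overlapped a CHH region against the CHH level of that region (horizontal axis, percent, log scale), each in its own higher group. Blue points are 2031 regions with a repeat, orange points are 1114 without, and the line marks equal levels. In 77.8% of the regions the CHG level is the larger, with a median ratio of 1.21. The members were listed for a CHG difference and the CHH regions are longer, which can raise this ratio.

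Among the named regions, 10 of 12 overlapped a CHH region of the same direction. At chrX:126173222-126173387, CHH methylation measured 0.082% in CUMS and 35.1% in Ctrl. At chr7:95501347-95501461 it was 30.1% in CUMS and 0.14% in Ctrl. At chrY:687658-687772 it was 0.062% in CUMS and 24.3% in Ctrl. The 12 regions were named for large CHG differences, which favours a larger CHG level. In the higher group, the CHG level exceeded the CHH level in the 3 regions above and in 9 of the 10. The exception was chr15:89970048-89970108, with a CHG level of 22.3% and a CHH level of 23.2% in CUMS. Only chr1:35839904-35839966 and chr14:8148735-8148791 had no CHH region.

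Overlap with differing CG regions was rare. A CG region overlapped 14 members (0.29%), 8 with a repeat and 6 without, compared with 99 of the other CHG regions (2.38%). Direction was the same in 10 and opposite in 4. The CG level at these positions was high, with a median of 73.6% in Ctrl (3.67–91.1%) and 69.3% in CUMS (13.9–95.3%). The L1_Rn region at chr3:104794295-104794415 was one of the 4 with opposite directions, with a CG level of 40.9% in CUMS and 79.9% in Ctrl beside a CHG level of 30.5% in CUMS and 9.55% in Ctrl. It was singled out because it was also 1 of the 3 members above 5% in both groups.

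The members were short. Their median length was 93 bp (quartiles 68 and 132 bp) with a median of 15 cytosines, against 100 bp and 18 cytosines in the other CHG regions. Per 100 bp, they held a median of 16.1 listed cytosines with a repeat and 17.3 without. Hypermethylated members were longer than hypomethylated ones, with a median of 95 bp compared with 88.5 bp.

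The distribution over the genome was compared by chromosome. The hypermethylated share exceeded 50% on 20 of 20 autosomes, both with a repeat and without. Its lowest value was 62.1% (55.7–68.1%), on chromosome 7, and its highest was 73.8% (67.3–79.5%), on chromosome 8. The share with a repeat was below that without on 14 autosomes and above it on 6, with differences of -8.46 to 19.4 points, so that no direction of this comparison held across chromosomes. Chromosome X held 617 members (12.7%), whereas it held 6.51% of the other CHG regions and 7.87% of the CHH regions of the full list. On X, 79.6% of the members lay in repeats, and 70.3% were hypermethylated (66.6–73.8%). On X the higher group had a median of 4.36%, compared with 4.10% on the autosomes. Chromosome Y held 44 members, 23 hypermethylated and 21 hypomethylated. A further 35 members lay on unplaced scaffolds, of which 22 were hypermethylated.

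Most members lay far from CpG islands, which follows in part from the rule that defines them. That rule leaves out regions in CpG islands and promoters, and the other CHG regions are the ones it left out. Contrasts between both sets in open sea are thus partly set by the rule. Open sea was annotated for 4694 members (96.7%), compared with 81.1% of the other CHG regions, and an island shore or shelf (the near and the farther flank of an island) for 148 (3.05%). Of the 148, 67.6% were hypermethylated. The stretch of open sea around a member had a median length of 698 kb. It measured 968 kb for members with a repeat, 358 kb for members without, and 202 kb for the other CHG regions. For L1_Rn or L1_Rat1 it was 1529 kb, and 64.3% of these regions lay in a stretch of at least 1000 kb. The stretch with most members was on X and spanned 7598 kb, with 44 members, of which 41 held a repeat and 33 were hypermethylated.

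Most members stood alone, with 4710 that had no other within 1000 bp. The median distance between neighbours was 299 kb, and 142 members lay within 1000 bp of another, in 70 clusters. How many such close neighbours a random placement would give was not computed. Among 72 pairs of neighbours at most 1000 bp apart, 66 had the same direction (91.7%), compared with 46 of 88 pairs (52.3%) at more than 1000 and up to 5000 bp and 56.1% of the pairs more than 100000 bp apart. A single cluster held more than 3 members and lay at chrX:141162439-141163012 in L1_Rat1. Its 4 regions had 3.20%, 3.21%, 4.87% and 4.01% in CUMS and 0.019%, 0.025%, 0.025% and 0.014% in Ctrl. All 4 were hypermethylated and none overlapped a CHH region.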

How the data were processed

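DNA methylation was measured in hippocampal BMECs of 3 CUMS and 3 Ctrl samples, grouped by sample title, after enzymatic treatment with TET2 and APOBEC3A. Per the submitters' processing notes and the study's methods, the authors used FastQC 0.11.3, fastp 0.20.0, Bismark 0.16.3 with Bowtie2 and the mRatBN7.2 (rn7) assembly, and called regions with DSS. How reads with several alignments were handled is not given in the sources used here. The deposited levels are a fraction from 0 to 1, combined over the samples of a group by the authors, and were multiplied to percent here. The tables hold no counts, coverage, p-values or per-sample values, so the depth behind each level is not known from them (the study's methods give coverage per sample only), no test could be run, and results are counts, shares and medians. The authors' difference and areaStat columns hold their own comparison and were not used. Differences were computed as CUMS minus Ctrl. The study's methods state a minimum difference of 10 percentage points, but the smallest listed here was 2.00 points, and all listed regions were kept.

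Annotation rows were joined by chromosome, start, end and context to a single region. Repeat family, class and consensus stretch were read from the annotation. Overlaps of at least 1 bp were counted, and the CHH region with the longest overlap was taken. CHH regions came from the full list, since only 10000 of them were annotated. Of 4 tables, 3 were used, and the gene profile was not. The members, lists and comparisons were chosen with earlier results of these data known. The regions named were the 3 with the largest absolute difference in each of 4 sets on chromosomes 1 to 20, X and Y, and the families were the 5 with most members. A second ranking by areaStat was not applied, because areaStat is the authors' own comparison. Other features named are said to be chosen after their values were seen. No sequence is printed, since no genome of this assembly was used here. Where an alternative applied, results were recomputed for minimum differences of 5 and 10 points, at least 20 cytosines, at least 100 bp, autosomes only, merging within 1000 bp, the overlap rule and, added after the data were seen, removal of X, of L1_Rn and L1_Rat1, and of shores and shelves. Scripts were tested on simulated data. Python 3.11.15, pandas 2.3.3, numpy 2.4.6, scipy 1.17.1 and matplotlib 3.10.9 were used.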

Additional observations from a re-analysis of the deposited data

Results flagged for a closer look

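The 3 CHG regions without annotation, all on unplaced scaffolds, entered no comparison of members. In 2 of them the level was above that of the control samples. A region of 72 bp with 19 cytosines had 14.1% in CUMS and 0.055% in Ctrl and thus differed by 14.06 percentage points. Another, of 167 bp with 17 cytosines, had 4.11% in CUMS and 0.026% in Ctrl and thus differed by 4.09 points. The third, of 94 bp with 11 cytosines, was lower in CUMS (0.026% and 5.94%). Whether they are intergenic is not known, and the differences were not tested.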

How the results depend on the processing

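No paired analysis was possible because levels were given per group and not per sample, and leaving out replicates was not possible for the same reason. Of 31 alternatives, 17 moved the value by less than its counting interval or spread and 14 moved it by more, none of them turning the direction of the hypermethylated share. That interval belonged to the main value, and the counting error of the alternative was left out. At 10 points or more, the share over 167 members had an interval of 57.2–71.5%, which held the main 68.1%. The hypermethylated share of all members became 64.7% at 10 points or more, 71.9% with at least 20 cytosines, 71.2% at 100 bp or more and 70.1% without L1_Rn and L1_Rat1, the last chosen after the data were seen. Without these families the share with a repeat was 71.3%. The share with a repeat minus the share without was -6.62 points at 5 points or more and -10.6 points at 10 points or more. Without L1_Rn and L1_Rat1 it was 3.16 points. The main difference of -0.19 points had an interval of -2.97 to 2.64 points, so its sign was not settled. Removing families picked after their low shares had been seen raises the share with a repeat by construction. With at least 20 cytosines the median absolute difference was 4.31 points with a repeat and 4.15 points without, and the higher group had a median level of 4.35%. The share overlapping a CHH region became 62.3% when at least 50% of the CHG region had to be covered and 7.75% with the reduced CHH list of 10000 regions. The density of cytosines was 17.0 per 100 bp in regions of 100 bp or more, against 16.5 in all. Apart from the reduced list, which holds fewer CHH regions, the cause was not tested. The share without a repeat and the number of members had no alternative of their own. The depth behind a region's level is not in the tables, and no level has an error.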

Other observations

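Intergenic CHH regions of the reduced list, counted by the same annotation rule, were placed beside the CHG regions as a description, since both come from the same libraries. In L1_Rn or L1_Rat1, 91 were hypermethylated and 41 hypomethylated (68.9%, 60.6–76.2%), and in other L1 the numbers were 741 and 185 (80.0%, 77.3–82.5%). L1_Rn and L1_Rat1 were rarer among them, with 132 of 3257 CHH regions in repeats compared with 872 of 3290 CHG regions. RatSatRep2 held 29 of the CHH regions and 418 of the CHG regions. The reduced list held 10000 CHH regions, against 145823 in the full list, so it cannot stand for all CHH regions. Its difference from the CHG list was not tested.

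In 4 members the overlapping CHH region had the opposite direction. The largest in CHG level lay at chr4:108742777-108742889, without a repeat, where CHG methylation measured 8.19% in CUMS and 0.76% in Ctrl, while CHH methylation measured 0.50% in CUMS and 6.20% in Ctrl. It was chosen after its values were seen.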
